A study of Homo sapiens with 6 samples.

Results

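ABC transporters are membrane pumps that use the energy of ATP to move drugs, lipids, peptides and metabolites across membranes. Some of them export anti-cancer drugs and are known for resistance of tumour cells, while others load lipids onto acceptors outside the cell or carry fatty acids into organelles. The proteins of the ABCE and ABCF subfamilies hold the ATP-binding part without the membrane part and act on ribosomes. The genes described here are those whose annotated symbol starts with ABCA to ABCG followed by a number, without pseudogenes and with 1 further gene left out. By this rule 41 of 18033 annotated genes were measured on the 22011 probe sets of the arrays, 36 of them by a probe set of their own and 5 by a probe set annotated to other genes as well. Of several probe sets the brightest on average was taken, which concerned ABCA10.

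The samples were HCC827 cells, an established human lung adenocarcinoma line with an activating EGFR deletion, measured untreated on Affymetrix human exon arrays. The 3D group (3 arrays) holds hanging drop spheroids that the labels describe as embedded into Matrigel, a basement membrane extract, and the 2D group (3 arrays) holds flat cultures without coating. The study's text calls the 3D cultures on the arrays spheroids and keeps another word for embedded ones, so whether these were embedded rests on the labels. If they were, dimensionality and matrix changed together and their effects cannot be told apart. A single line stands for lung cancer here. Values are log2 signals after RMA, and every difference is 3D minus 2D on the log2 scale. Each difference was tested by limma over all probe sets with Benjamini-Hochberg adjustment and a threshold of 0.05 for the adjusted p. The labels do not say whether replicates were separate cultures, so the p-values rest on a spread between arrays that may be technical.

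The arrays correlated across probe sets at 0.956 to 0.974 within 3D, 0.980 to 0.987 within 2D and 0.943 to 0.975 between the groups. The spread was wider in 3D than in 2D, with a median SD over all probe sets of 0.26 against 0.17. Among the 41 ABC genes the median SD was 0.19 in 3D and 0.11 in 2D. Epithelial markers were bright, with E-cadherin (CDH1) at 10.06 ± 0.31 in 3D and 10.39 ± 0.08 in 2D (SD, n = 3 each). Of 10 epithelial markers 0 passed the test in limma, 9 lay below 0 (of all probe sets 56.6% lay above 0), 6 had 3D arrays that all lay below the 2D arrays (10.0% of all probe sets), and the mean signal of the list was 8.79 to 9.03 on the 3D arrays and 9.31 to 9.47 on the 2D arrays. Of 8 fibroblast, 6 immune and 6 endothelial markers with a probe set of their own, 0 passed in limma (0.382% of all probe sets). Most of these markers were dim, below percentile 40 of mean signal: 6 fibroblast, 4 immune and 5 endothelial ones. Differences lay above 0 for 8 fibroblast, 5 immune and 4 endothelial markers (56.6% of all probe sets and 61.1% of the dim ones). The 3D arrays lay entirely above the 2D arrays for 0, 2 and 2 of them (12.7% of all probe sets). They lay entirely below for 0, 0 and 1 (10.0%). The list means were 5.27 to 5.49 in 3D and 5.07 to 5.26 in 2D for fibroblasts, 5.70 to 6.08 in 3D and 5.47 to 5.62 in 2D for immune cells, and 5.35 to 5.49 in 3D and 5.31 to 5.37 in 2D for endothelium. CD68, a lysosomal protein of macrophages that other cells also make, was the brightest of these markers and differed by -0.15 (limma, adjusted p = 0.753). The immune markers CD14 and CD2 lay entirely higher in 3D, with log2 differences of 0.71 and 0.47 (limma, adjusted p = 0.144 and 0.255). At an unadjusted p under 0.05 in limma, 2 immune markers were higher (7.17% of all probe sets) and 5 epithelial markers were lower (7.94%). The part of these shifts in the results on ABC genes was not tested.

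None of the ABC genes passed the test: 0 of 41 were higher and 0 were lower in 3D (limma, adjusted p under 0.05), where 0.382% of all probe sets passed. The smallest adjusted p was 0.149. At an unadjusted p under 0.05 in limma, 1 ABC gene was higher (7.17% of all probe sets) and 3 were lower (7.94% of all probe sets). The differences lay above 0 for 28 genes (56.6% of all probe sets) and below 0 for 13, with a median of 0.08 against 0.05 over all probe sets. They were small for most genes, under 0.3 in size for 30 of the 41 and over 0.5 for 5, namely ABCA12, ABCC9, ABCA1, ABCG2 and ABCA10, the last on a probe set shared with other genes. In 7 genes all 3D arrays lay above all 2D arrays (12.7% of all probe sets did so), and in 4 genes all 3D arrays lay below them (10.0% of all probe sets). The 7 were ABCA5, ABCA12, ABCB4, ABCB5, ABCB9, ABCB11 and ABCC8, and the 4 were ABCA1, ABCC4, ABCC5 and ABCG2. These shares of the ABC genes are not far from those of all probe sets.

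**Figure D1:**
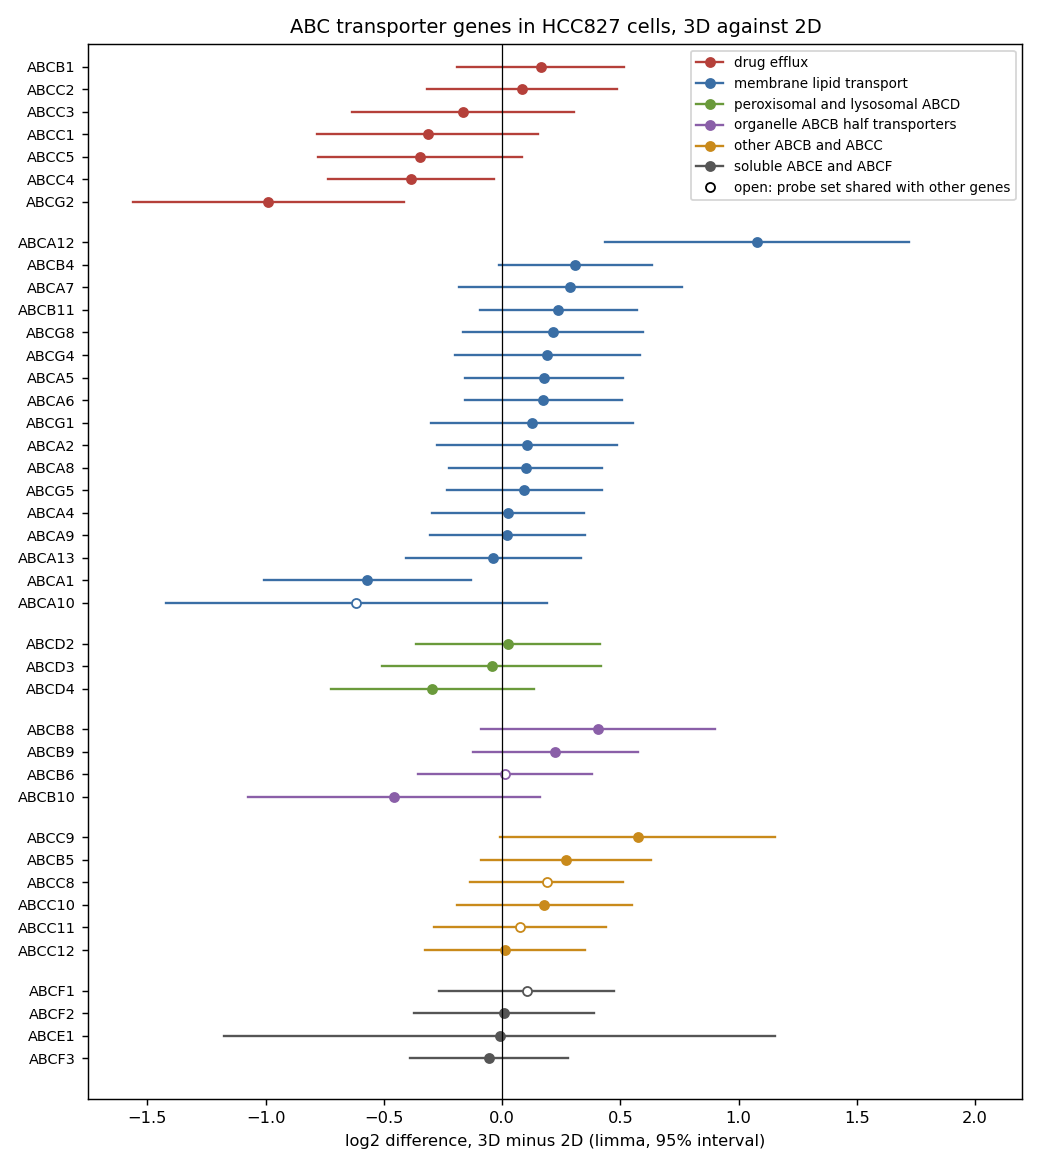
Log2 difference, 3D minus 2D, of the 41 ABC genes by role, with the 95% interval of limma as a line and open points for probe sets shared with other genes. The intervals of ABCA12, ABCG2, ABCA1 and ABCC4 do not reach 0, and none of the 41 genes passed the test after adjustment over all probe sets.

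The 4 genes with the smallest p-values were ABCG2, ABCA12, ABCA1 and ABCC4, and their promoter windows are shown to give the sequence context of the genes that lead in each direction. The windows are from RefSeq (GRCh38.p14) and hold 250 bases before and 50 after a transcription start, all of them on the minus strand. Capitals mark matches to the GC box GGGCGG, the E-box CACGTG, the TATA box TATAAA or the CCAAT box CCAAT on either strand.
ABCG2, chr4:88158810-88159109: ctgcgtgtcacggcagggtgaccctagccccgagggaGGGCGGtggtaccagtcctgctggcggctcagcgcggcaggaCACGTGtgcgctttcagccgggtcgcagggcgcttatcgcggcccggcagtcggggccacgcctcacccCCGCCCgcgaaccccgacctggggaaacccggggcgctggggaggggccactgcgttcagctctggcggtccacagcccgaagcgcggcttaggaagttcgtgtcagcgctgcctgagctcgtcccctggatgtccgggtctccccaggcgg
ABCA12, chr2:215138577-215138876: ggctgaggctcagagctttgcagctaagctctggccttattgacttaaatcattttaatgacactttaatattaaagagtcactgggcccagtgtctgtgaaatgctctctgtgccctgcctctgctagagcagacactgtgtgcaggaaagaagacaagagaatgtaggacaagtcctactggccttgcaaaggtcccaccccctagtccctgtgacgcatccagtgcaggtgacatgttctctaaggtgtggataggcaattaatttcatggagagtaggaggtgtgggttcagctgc
ABCA1, chr9:104928106-104928405: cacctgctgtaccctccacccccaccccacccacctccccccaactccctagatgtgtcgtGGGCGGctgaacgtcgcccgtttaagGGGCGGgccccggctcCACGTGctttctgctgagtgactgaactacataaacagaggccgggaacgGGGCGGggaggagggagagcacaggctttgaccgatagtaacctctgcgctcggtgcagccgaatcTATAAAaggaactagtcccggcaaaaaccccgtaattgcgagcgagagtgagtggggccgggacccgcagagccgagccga
ABCC4, chr13:95301402-95301701: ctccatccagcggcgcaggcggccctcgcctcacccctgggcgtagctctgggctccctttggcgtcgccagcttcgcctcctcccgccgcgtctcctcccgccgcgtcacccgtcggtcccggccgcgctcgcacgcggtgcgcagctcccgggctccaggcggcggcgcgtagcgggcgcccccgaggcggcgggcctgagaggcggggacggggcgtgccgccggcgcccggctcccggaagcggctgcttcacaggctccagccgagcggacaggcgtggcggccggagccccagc
RefSeq lists 5 starts for ABCG2, of which the middle one of a group of overlapping windows is shown, and 2 for ABCA12, of which the upstream one is shown. The window of ABCG2 holds 2 GC boxes and 1 E-box, and that of ABCA1 holds 3 GC boxes, 1 E-box and 1 TATA box. The windows of ABCA12 and ABCC4 hold no match, which says only that these letters are not in them. They differ in base composition, since G and C make up 48.7% of the ABCA12 window, 62.7% of that of ABCA1, 72.3% of that of ABCG2 and 79.7% of that of ABCC4. Of the 41 genes 33 have an entry, with 50 windows in all. The GC box is in 48.0% of these windows and in 45.0% of 35116 windows of all genes, and the E-box is in 18.0% of these and in 7.26% of all. The TATA box is in 16.0% of these and in 11.5% of all, and the CCAAT box is in 24.0% of these and in 34.6% of all. Several windows of a gene can overlap, so they are not independent, and a match is a description and not a binding site.

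The drug efflux genes encode pumps that export anti-cancer drugs or their conjugates. Of these 7 genes 0 were higher and 0 were lower in 3D by limma (0.145% and 0.236% of all probe sets). An unadjusted p in limma was under 0.05 for 0 of those above 0 (7.17% of all probe sets) and 2 of those below (7.94%). Their differences lay below 0 for 5 genes and above 0 for 2 (56.6% of all probe sets lay above 0). The median was -0.31 against 0.05 over all probe sets. In 3 of them (ABCC4, ABCC5 and ABCG2) all 3D arrays lay below all 2D arrays (10.0% of all probe sets), and in 0 of them above (12.7%).

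ABCG2, also called breast cancer resistance protein, exports many drugs and is known to bind EGFR inhibitors such as gefitinib. Its signals were 5.53, 4.97 and 5.89 on the 3D arrays (replicates 1 to 3) and 6.54, 6.24 and 6.58 on the 2D arrays. Every 3D array lay below every 2D array, with 3D replicate 2 the lowest and 3D replicate 3 the nearest to the 2D arrays. The mean was 5.46 ± 0.46 in 3D and 6.45 ± 0.18 in 2D (SD, n = 3 each), a log2 difference of -0.99 (standard error 0.25, 95% interval -1.56 to -0.42). This was the largest decrease among the ABC genes, yet it missed the threshold (limma, adjusted p = 0.149). Without single arrays the difference lay between -1.20 and -0.74, with adjusted p-values of 0.0812 to 0.477.

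ABCC4, a pump for cyclic nucleotides, prostaglandins and nucleoside drugs, had signals of 7.16, 7.28 and 7.42 in 3D and 7.77, 7.56 and 7.69 in 2D. The groups did not overlap and their spreads were alike. Its mean in 3D minus that in 2D was -0.39 (standard error 0.15, 95% interval -0.74 to -0.03, limma, adjusted p = 0.296). ABCC5, which also carries cyclic nucleotides, had signals of 6.02, 5.62 and 6.17 in 3D and 6.21, 6.23 and 6.42 in 2D. Its groups were separated only narrowly, between 3D replicate 3 and 2D replicate 1. Its log2 difference was -0.35 (standard error 0.19, 95% interval -0.78 to 0.08, limma, adjusted p = 0.407), and -0.19 without 3D replicate 2.

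ABCC1, the first member described of the multidrug resistance proteins and an exporter of glutathione conjugates, had signals of 6.39, 7.03 and 6.52 in 3D and 6.94, 7.09 and 6.86 in 2D. Replicates 1 and 3 of 3D lay below the 2D arrays and 3D replicate 2 lay among them. The log2 difference was -0.31 (standard error 0.20, 95% interval -0.78 to 0.15, limma, adjusted p = 0.478). With single arrays left out it lay between -0.51 (3D replicate 2) and -0.19 (3D replicate 1). ABCC3, which exports glucuronides and bile salts, had signals of 6.42, 7.14 and 6.84 in 3D and 6.98, 6.98 and 6.94 in 2D. The 2D arrays were almost equal and the 3D arrays lay on both sides of them. Its mean in 3D minus that in 2D was -0.17 (standard error 0.20, 95% interval -0.63 to 0.30, limma, adjusted p = 0.707), and it was 0.02 without 3D replicate 1.

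ABCB1, which encodes P-glycoprotein, the exporter of paclitaxel and many other drugs, had signals of 4.26, 4.47 and 4.26 in 3D and 4.16, 4.29 and 4.04 in 2D. The groups overlapped. Its log2 difference was 0.16 (standard error 0.15, 95% interval -0.19 to 0.52, limma, adjusted p = 0.616). ABCC2, an exporter of conjugates at the apical membrane, had signals of 4.92, 5.10 and 5.43 in 3D and 5.11, 5.02 and 5.07 in 2D. Its highest and its lowest array were both 3D arrays. The log2 difference was 0.08 (standard error 0.17, 95% interval -0.32 to 0.49, limma, adjusted p = 0.836), and it was -0.06 without 3D replicate 3. Both genes had dim probe sets, at percentiles 13.5 (ABCB1) and 25.4 (ABCC2) of mean signal over all probe sets, and no detection call came with the signals, so a change in either could be hidden.

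**Figure D2:**
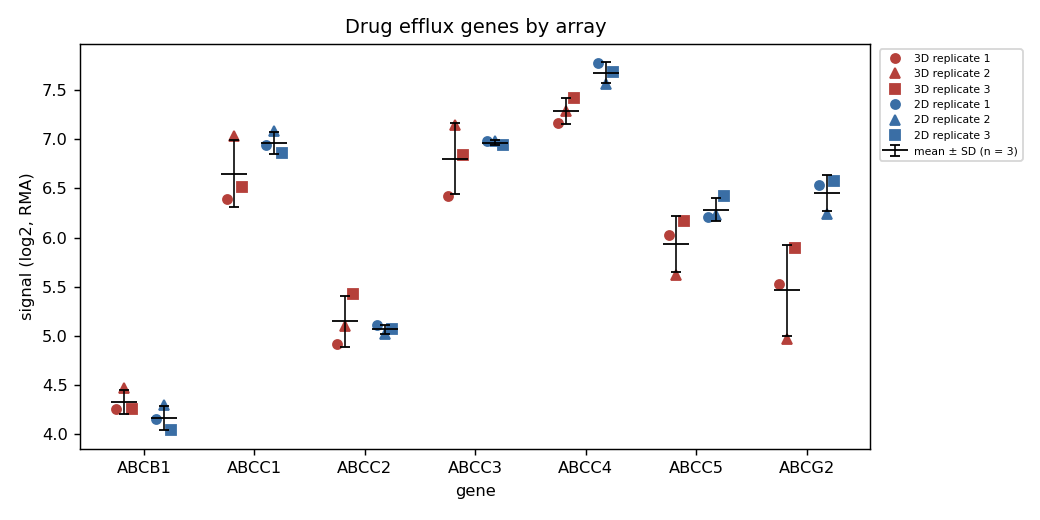
Log2 signals of the 7 drug efflux genes on each array, with 3D in red and 2D in blue, a symbol for each replicate number, and the mean and SD (n = 3) in black. The 3D arrays of ABCG2 lie between 4.97 and 5.89, all below the 2D arrays, while the groups of ABCB1, ABCC1, ABCC2 and ABCC3 overlap.

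The membrane lipid transport genes encode pumps that move cholesterol, phospholipids, sphingolipids, retinoids or bile salts. All 17 genes of this list were measured, and 0 were higher and 0 were lower in 3D by limma (0.145% and 0.236% of all probe sets). An unadjusted p in limma was under 0.05 for 1 of those above 0 (7.17% of all probe sets) and 1 of those below (7.94%). Their differences lay above 0 for 14 genes (56.6% of all probe sets) and below 0 for 3, with a median of 0.12 against 0.05 over all probe sets. In 4 genes (ABCA5, ABCA12, ABCB4 and ABCB11) all 3D arrays lay above all 2D arrays (12.7% of all probe sets), and in 1 gene (ABCA1) all lay below (10.0%). Of the 17 genes 13 had dim probe sets, below percentile 40 of mean signal.

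ABCA12, which loads lipids into the lamellar granules of skin cells and is also made in lung epithelium, had signals of 8.85, 8.02 and 9.10 in 3D and 7.64, 7.43 and 7.66 in 2D. Every 3D array lay above every 2D array, with 3D replicate 2 the nearest to them. The mean was 8.66 ± 0.57 in 3D and 7.58 ± 0.13 in 2D (SD, n = 3 each), a log2 difference of 1.08 (standard error 0.28, 95% interval 0.43 to 1.72). This was the largest increase among the ABC genes, yet it missed the threshold (limma, adjusted p = 0.159). It passed without 3D replicate 2 at 1.40 (limma, adjusted p = 0.0247) and with array weights, which gave that array the lowest weight, at 1.20 (limma, adjusted p = 0.033). Over all single arrays left out, the difference lay between 0.86 and 1.40, with adjusted p-values of 0.0247 to 0.431.

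ABCA1, which passes cholesterol and phospholipids to apolipoprotein A-I, had signals of 6.43, 6.87 and 6.98 in 3D and 7.44, 7.19 and 7.36 in 2D. Every 3D array lay below every 2D array, and 3D replicate 1 was the lowest. The mean was 6.76 ± 0.29 in 3D and 7.33 ± 0.12 in 2D (SD, n = 3 each), a log2 difference of -0.57 (standard error 0.19, 95% interval -1.01 to -0.13, limma, adjusted p = 0.241). ABCG1, which exports cholesterol to lipoprotein particles and like ABCA1 is a target of the sterol receptors LXR, had signals of 5.71, 6.12 and 5.63 in 3D and 5.62, 5.87 and 5.59 in 2D. Its probe set was dim, at percentile 37.4, its groups overlapped, and replicate 2 was the highest array in both. Its mean in 3D minus that in 2D was 0.12 (standard error 0.18, 95% interval -0.30 to 0.55, limma, adjusted p = 0.763), and it was -0.03 without 3D replicate 2. The intervals of ABCA1 and ABCG1 share the stretch from -0.30 to -0.13, and the difference between the genes was not tested.

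ABCB4, which moves phosphatidylcholine into bile in the liver, had signals of 4.25, 4.32 and 4.27 in 3D and 3.98, 4.04 and 3.88 in 2D. The arrays within each group lay close together and the groups did not overlap. Its log2 difference was 0.31 (standard error 0.14, 95% interval -0.01 to 0.63, limma, adjusted p = 0.345). ABCB11, the bile salt pump of the liver, had signals of 4.20, 3.99 and 4.10 in 3D and 3.84, 3.84 and 3.92 in 2D, with a log2 difference of 0.24 (limma, adjusted p = 0.453). Both probe sets were dim, at percentiles 12.0 (ABCB4) and 10.5 (ABCB11).

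ABCA7, a phospholipid transporter near in sequence to ABCA1, had signals of 6.54, 7.10 and 6.46 in 3D and 6.35, 6.54 and 6.33 in 2D. It was highest on 3D replicate 2 and the groups overlapped, with a log2 difference of 0.29 (limma, adjusted p = 0.515) that was 0.09 without 3D replicate 2. ABCA2, which acts in endosomes and lysosomes, differed by 0.11 on the log2 scale (limma, adjusted p = 0.777), and by 0.02 without 3D replicate 2. ABCA5, ABCA6, ABCA8 and ABCA9 form a row of related genes on chromosome 17, and all of them were dim, with differences from 0.02 to 0.18 and adjusted p-values in limma of 0.57 to 0.951. In this row only ABCA5 had groups that did not overlap, at 4.03, 3.93 and 3.94 in 3D and 3.92, 3.70 and 3.75 in 2D. ABCG5 and ABCG8, whose products pair to export plant sterols, lie head to head so that their promoter windows share 231 bases. Both had overlapping groups, with log2 differences of 0.09 for ABCG5 and 0.22 for ABCG8. ABCA4, ABCA13 and ABCG4 also had overlapping groups.

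ABCA10, a further gene of the row on chromosome 17, is listed on 2 probe sets. The brighter one is also annotated to ABCA11P, ZNF721 and ZNF732, and its signal cannot be given to ABCA10. It had signals of 3.59, 3.90 and 4.79 in 3D and 4.63, 4.30 and 5.20 in 2D, a log2 difference of -0.62 (limma, adjusted p = 0.43). The probe set annotated to ABCA10 alone had 3.25, 3.49 and 3.22 in 3D and 3.23, 3.07 and 3.09 in 2D, a log2 difference of 0.19 (limma, adjusted p = 0.557). The sign of ABCA10 thus turned with the probe set.

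**Figure D3:**
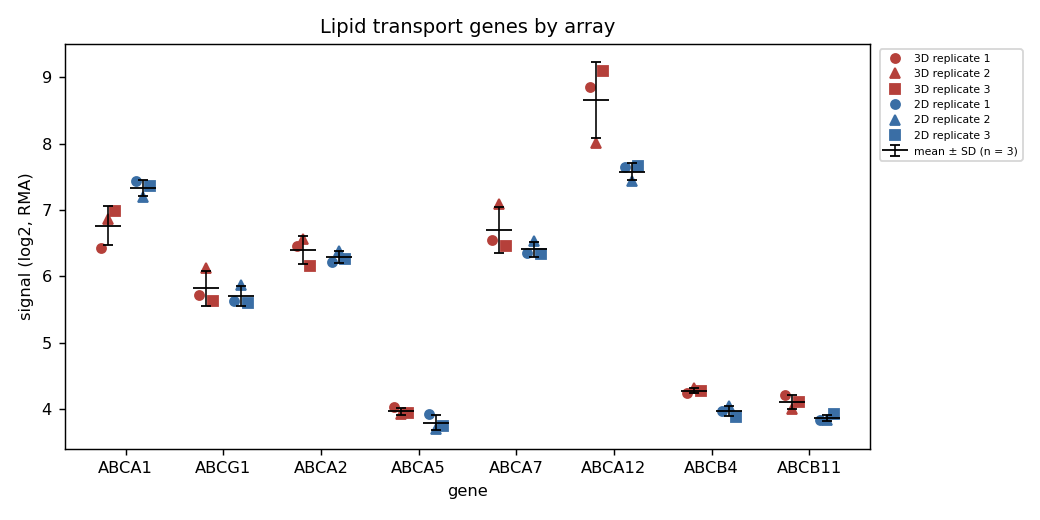
Log2 signals of 8 lipid transport genes on each array, with 3D in red and 2D in blue, a symbol for each replicate number, and the mean and SD (n = 3) in black. ABCA12 lies higher on every 3D array (8.02 to 9.10) than on any 2D array, and ABCA1 lies lower (6.43 to 6.98).

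The ABCD genes encode transporters that work in pairs to carry fatty acids into peroxisomes, apart from ABCD4, which handles vitamin B12 at lysosomes. Of the 3 measured genes 0 passed the test in limma (0.382% of all probe sets), and their groups overlapped. At an unadjusted p under 0.05 in limma, 0 were higher and 0 lower (7.17% and 7.94% of all probe sets). ABCD3 had signals of 9.86, 9.20 and 9.66 in 3D and 9.67, 9.51 and 9.68 in 2D, with the lowest value on 3D replicate 2. ABCD4 had the largest difference of the list at -0.30 (limma, adjusted p = 0.47), with signals of 6.01, 6.52 and 6.06 in 3D and 6.56, 6.35 and 6.58 in 2D. ABCD2 was dim.

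Among the organelle genes of the ABCB subfamily, ABCB8 and ABCB10 encode transporters of the inner mitochondrial membrane and ABCB9 encodes a peptide transporter of lysosomes. Of 4 measured genes 0 passed the test in limma (0.382% of all probe sets). At an unadjusted p under 0.05 in limma, 0 were higher and 0 lower (7.17% and 7.94% of all probe sets). ABCB8 had signals of 6.79, 6.999 and 6.27 in 3D and 6.15, 6.39 and 6.30 in 2D, so that 3D replicates 1 and 2 lay above the 2D arrays and 3D replicate 3 among them (log2 difference 0.41, limma, adjusted p = 0.40, and 0.25 without 3D replicate 2). ABCB10, which acts in haem synthesis, had signals of 5.11, 5.09 and 6.05 in 3D and 5.85, 5.83 and 5.95 in 2D. Here 3D replicates 1 and 2 lay below the 2D arrays and 3D replicate 3 lay above them, with a log2 difference of -0.46 (limma, adjusted p = 0.441) that lay between -0.78 without 3D replicate 3 and -0.29 without 3D replicate 2. ABCB9 had signals of 5.86, 5.81 and 5.78 in 3D and 5.76, 5.57 and 5.44 in 2D, which did not overlap (log2 difference 0.22, limma, adjusted p = 0.498). The probe sets of ABCB9 and ABCB10 were dim, at percentiles 36.2 and 35.1. ABCB6 shares its probe set with the autophagy gene ATG9A, and this probe set had a log2 difference of 0.01.

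The remaining 6 ABCB and ABCC genes all had differences above 0 (56.6% of all probe sets), from 0.01 to 0.57. Of their probe sets 4 were dim, below percentile 40 of mean signal, where 61.1% of all probe sets lay above 0. Of these 6 genes 0 passed the test in limma (0.382% of all probe sets). At an unadjusted p under 0.05 in limma, 0 were higher and 0 lower (7.17% and 7.94% of all probe sets). ABCC9, which encodes a regulatory subunit of potassium channels, had signals of 7.20, 6.51 and 7.09 in 3D and 6.59, 5.96 and 6.53 in 2D. Replicate 2 was the lowest array in both groups, and 3D replicate 2 lay below 2 of the 2D arrays. The log2 difference was 0.57 (standard error 0.25, 95% interval -0.01 to 1.16, limma, adjusted p = 0.334), and it lay between 0.37 without 2D replicate 2 and 0.79 without 3D replicate 2. ABCB5, described as a marker of melanoma-initiating cells, was dim, with signals of 3.73, 3.67 and 3.62 in 3D and 3.20, 3.48 and 3.52 in 2D. Its groups did not overlap (log2 difference 0.27, limma, adjusted p = 0.438). The probe set of ABCC8, which like ABCC9 encodes a sulfonylurea receptor, is annotated to the succinate dehydrogenase gene SDHC as well. It was dim, at percentile 35.2, and its groups did not overlap either (log2 difference 0.19, limma, adjusted p = 0.535). ABCC10, a further exporter of drugs, differed by 0.18 on the log2 scale (limma, adjusted p = 0.602). Its groups overlapped, as did those of ABCC12 and of ABCC11, whose probe set is shared with LONP2.

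The soluble proteins act in translation. ABCE1 splits ribosomes after termination and ABCF1 takes part in initiation. None of the 4 genes passed the test in limma (0.382% of all probe sets), and the groups overlapped in each. At an unadjusted p under 0.05 in limma, 0 were higher and 0 lower (7.17% and 7.94% of all probe sets). ABCE1 had signals of 9.35, 7.24 and 9.04 in 3D and 8.55, 8.32 and 8.80 in 2D. Replicates 1 and 3 of 3D were the highest arrays and 3D replicate 2 was by far the lowest. Its mean in 3D minus that in 2D was -0.01 (standard error 0.50, 95% interval -1.17 to 1.15, limma, adjusted p = 0.995), and without 3D replicate 2 it was 0.64 (limma, adjusted p = 0.198). The SD of ABCE1 in 3D, 1.14, was the largest of any ABC gene in either group. ABCF1, whose probe set also holds the microRNA gene MIR877, had signals of 7.89, 8.06 and 7.85 in 3D and 7.68, 8.02 and 7.79 in 2D (log2 difference 0.10, 95% interval -0.27 to 0.47). ABCF2 had signals of 7.27, 7.31 and 7.63 in 3D and 7.29, 7.52 and 7.37 in 2D (log2 difference 0.01, 95% interval -0.37 to 0.39). ABCF3 had signals of 6.54, 6.50 and 6.61 in 3D and 6.48, 6.66 and 6.68 in 2D (log2 difference -0.06, 95% interval -0.39 to 0.28). The intervals of the ABCF genes thus left out differences of 0.5 in either direction, which that of ABCE1 did not.

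**Figure D4:**
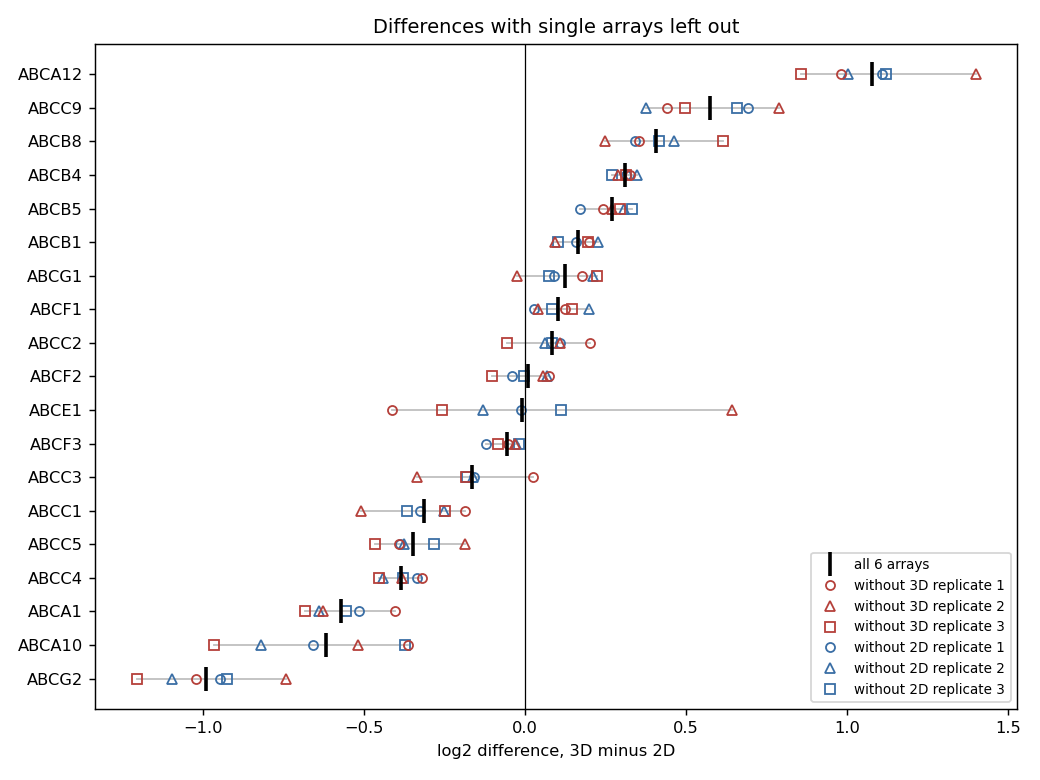
Log2 difference, 3D minus 2D, of 19 ABC genes over all 6 arrays (black bar) and with each array left out in turn (open symbols, red where a 3D array was left out and blue where a 2D array was). ABCG2 stays between -1.20 and -0.74 and ABCA12 between 0.86 and 1.40, while ABCE1 lies between -0.41 and 0.64.

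Genes that act around these transporters were described from 4 further lists, of which only probe sets with 1 symbol were used. Of 14 measured genes (of 20) for sensing and supply of cholesterol, 0 were higher and 1 was lower in 3D by limma (0.145% and 0.236% of all probe sets). This was INSIG1, whose protein holds the sterol sensor of the SREBP pathway in the endoplasmic reticulum, with signals of 7.06, 6.91 and 7.27 in 3D and 8.54, 8.50 and 8.53 in 2D. The groups lay far apart against their spread, at a log2 difference of -1.45 (standard error 0.15, 95% interval -1.80 to -1.09, limma, adjusted p = 0.0174). The call was lost without 2D replicates 1, 2 and 3 and 3D replicate 1 in turn, at adjusted p-values in limma of 0.138, 0.0878, 0.115 and 0.0704, while the difference stayed between -1.54 and -1.36. The median of the list was -0.08 against 0.05 over all probe sets. At an unadjusted p under 0.05 in limma, 1 gene was higher and 5 were lower (7.17% and 7.94% of all probe sets). In 2 genes all 3D arrays lay above all 2D arrays and in 5 all lay below (12.7% and 10.0% of all probe sets).

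Of 13 measured drug uptake carriers (of 18), 0 were higher and 0 were lower in limma (0.145% and 0.236% of all probe sets). At an unadjusted p under 0.05 in limma, 0 were higher and 2 lower (7.17% and 7.94% of all probe sets). The median of these carriers was -0.0029 against 0.05 over all probe sets. SLCO2A1, a prostaglandin carrier, had signals of 7.17, 7.24 and 7.30 in 3D and 7.90, 8.29 and 8.21 in 2D, which did not overlap. Its log2 difference was -0.89 (standard error 0.16, limma, adjusted p = 0.0729), and it passed the test with array weights (adjusted p = 0.046) and with dim probe sets left out (adjusted p = 0.0475). SLCO4C1 differed by -0.44 on the log2 scale (limma, adjusted p = 0.288). Of 14 measured genes (of 18) for sensing and conjugating xenobiotics, 0 were higher and 0 were lower in limma (0.145% and 0.236% of all probe sets). Their median was 0.07. At an unadjusted p under 0.05 in limma, 2 were higher and 1 lower (7.17% and 7.94% of all probe sets). CYP1B1, a cytochrome P450 that the aryl hydrocarbon receptor induces, differed by 0.57 on the log2 scale (limma, adjusted p = 0.205), and GSTA4, a glutathione transferase, had 0.69 (limma, adjusted p = 0.236). Of 9 measured partners (of 13) in ribosome rescue and recycling, 0 were higher and 0 were lower in limma (0.145% and 0.236% of all probe sets). Their median was 0.10. At an unadjusted p under 0.05 in limma, 1 was higher and 0 lower (7.17% and 7.94% of all probe sets). GSPT1, which encodes the release factor eRF3a, differed by 0.55 on the log2 scale (limma, adjusted p = 0.253), and EIF2S1, the alpha subunit of the initiation factor eIF2, had 0.48 (limma, adjusted p = 0.368).

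Signal level went along with direction among the ABC genes. Of the 22 genes below percentile 40 of mean signal 19 had differences above 0, with a median of 0.11, against 61.1% of all probe sets of that range, with a median of 0.08. Of the other 19 genes 9 lay above 0 and 10 below, with a median of -0.01, against 53.6% above 0 and a median of 0.03 for all probe sets of that range. All 4 genes whose 3D arrays lay entirely below the 2D arrays were among these 19, and 6 of the 7 genes whose 3D arrays lay entirely above were among the 22. Some of them lay near the cut, with ABCG2 at percentile 41.9 and ABCC5 at 45.7 above it, and ABCB9 at 36.2 and ABCC8 at 35.2 below it. The split thus depends in part on where the cut was put. Over all probe sets of the dim range, the 3D arrays lay entirely below for 6.75% and entirely above for 13.1%. For all probe sets of the brighter range the shares were nearly equal, at 12.2% below and 12.3% above.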

How the data were processed

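The authors extracted total RNA, amplified and labelled it, hybridised fragmented antisense RNA to Affymetrix human exon 1.0 ST arrays, and deposited log2 signals made by RMA with oligo in R (versions and genome build not given in the sources used here). RMA subtracts background, sets all arrays to 1 distribution and gives a value per transcript cluster, which compresses differences of dim probe sets. All 6 arrays were used, and the deposited values were not normalized again. Of the probe sets, 14432 carried 1 gene symbol, 2408 several and 5171 none, and all 41 members matched RefSeq by Entrez ID. limma 3.58.1 in R 4.3.3 was fitted to all 22011 probe sets without covariates (2-sided). The fit was also run on simulated data with known changes and normal noise of equal spread in both groups. Since the measured spread was wider in 3D, that run does not show how the test performs on these arrays. Members and lists were chosen with earlier results of these data known. Values on every array are given for the drug efflux and soluble genes, ABCA1, ABCG1 and the 5 genes at each end of the moderated statistic. For each other list the genes past the threshold are named, or else the 2 with the largest statistic. ABCA2, ABCA5, ABCA7, ABCB9, ABCB10, ABCB11, ABCC8, ABCC10, ABCD3 and ABCD4 were named after their values were seen. The differences of ABCB6, ABCG5 and ABCG8 and the values of single cell type markers were also given outside the rule. These genes and ABCD3 were not followed through the alternatives. The alternatives were a filter below percentile 40 of mean signal, a trended or robust prior, array weights, a block for the replicate number, each array left out, other scalings, an adjusted p under 0.01, a log2 difference of at least 1, the mean over probe sets, and shared probe sets left out. Arrays have no depth, so precision depends on how many there are. Figures were drawn with matplotlib 3.10.9.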

Additional observations from a re-analysis of the deposited data

How the results depend on the processing

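The count of ABC genes past the threshold was 0 with all arrays and between 0 and 1 without single arrays, where the 1 gene was ABCA12 without 3D replicate 2, and it was 1 with array weights, again ABCA12. Under the other alternatives it stayed at 0. The count over all probe sets, 84, was 415 with array weights, 152 with dim probe sets left out and 0 at an adjusted p under 0.01, and with an array left out it ranged over 0 to 150 (0 for each of the 2D arrays, and 7, 150 and 145 for 3D replicates 1, 2 and 3). The cause was not tested. The median of the drug efflux genes, -0.31, lay between -0.34 and -0.19 without single arrays. That of the lipid transport genes, 0.12, was 0.20 over the 4 genes left with dim probe sets left out and lay between 0.094 and 0.20 without single arrays. An alternative chosen after seeing the data, leaving out 3D replicate 2, gave 17 ABC genes whose groups do not overlap (10 higher and 7 lower, against 19.1% and 16.6% of all probe sets), the 11 of all arrays among them. Of 35 genes followed through the alternatives, 29 kept their sign under each one run on single genes. ABCA10 turned, as chosen after seeing the data, on the probe set annotated to it alone (0.19). The sign turned without single arrays for ABCC2 (-0.055 to 0.20), ABCC3 (-0.34 to 0.023), ABCG1 (-0.025 to 0.22), ABCE1 (-0.41 to 0.64, and 0.31 with array weights) and ABCF2 (-0.10 to 0.074). Deviations of arrays with the same replicate number correlated at 0.09, 0.37 and 0.22, and 5 of 6 arrays correlated best with their own number. Since 1 pair lay under 0.1 and no label ties the numbers to a batch, they were not taken as pairs, and whether they mark a shared batch was not settled. With the replicate number as a block 86 probe sets and 0 ABC genes passed, and ABCG2 and ABCA12 had adjusted p-values of 0.0743 and 0.086 in limma. The number of arrays and the dim signal of 22 of the 41 genes limit what can be seen.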

Other observations

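ABCC13, a transcribed pseudogene and so outside the 41 genes, had a dim probe set of its own with signals of 3.55, 3.72 and 3.56 in 3D and 3.41, 3.53 and 3.49 in 2D. The groups did not overlap, and the log2 difference was 0.13 (95% interval -0.20 to 0.46, limma, adjusted p = 0.663).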
